A study of Rattus norvegicus with 20 samples.

Results

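The erythroid microRNAs mir-451 and mir-144 were followed across serum and 15 tissues of male Long Evans Hooded rats aged 35 postnatal days. The members were taken by name as the miRBase precursors rno-mir-451 and rno-mir-144, which are 2 of the 444 precursors listed, and their 4 mature arms, which are 4 of the 577 mature miRNAs listed. mir-486, another miRNA that is abundant in red cells, was not analysed here. All animals were untreated, non-drinking controls, so no treatment was compared. Of the 20 libraries, 3 came from a whole brain hemisphere and 3 from blood serum, each of a single rat by the labels. The study describes a single cohort of 3 rats, so serum, hemispheres and pools share animals. The other 14 were pools, each combining a tissue of 3 rats, and covered subcutaneous abdominal fat, heart, kidney, large intestine, liver, lung, skeletal muscle, pancreas, skin, small intestine, spleen, stomach, testes and thymus. A pool is a single library, so its value carries counting error only, and whether the organs were flushed of blood before dissection is not given in the sources used here.

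mir-144 and mir-451 are made from a common primary transcript that the transcription factor GATA1 switches on in red cell precursors, and they stay abundant in circulating red cells after the nucleus is lost. mir-451 matures by an unusual route, in which its short hairpin is cut by Argonaute 2 instead of Dicer and then trimmed, whereas mir-144 is a conventional Dicer product. Both are widely used as signs of red cells or of their contents, including red cell breakdown in serum. In rodents the spleen makes red cells as well as removing aged ones.

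The sequences are shown because the members differ in how their hairpin reads fall on the annotated arms. The rat hairpins in RefSeq lie on the plus strand of chromosome 10 (GRCr8), mir-144 at chr10:63459397-63459479 and mir-451 at chr10:63459569-63459640, with 89 bases between them. The nearest protein-coding genes are Flot2 before and Eral1 after the pair, and no annotated gene spans both hairpins. In the 83-base and 72-base hairpins below, capitals mark the annotated mature arms.
mir-144 hairpin: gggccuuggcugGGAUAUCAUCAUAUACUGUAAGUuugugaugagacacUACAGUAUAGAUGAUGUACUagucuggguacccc
mir-451 hairpin: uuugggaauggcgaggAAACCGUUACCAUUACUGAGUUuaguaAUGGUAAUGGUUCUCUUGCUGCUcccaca
The annotated miR-451-5p covers bases 17 to 38 of its hairpin and is separated from the -3p arm by 5 bases. In the mature arms, capitals mark the seed, bases 2 to 8, by which a miRNA chiefly recognises its targets.
miR-451-5p: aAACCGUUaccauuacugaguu
miR-451-3p: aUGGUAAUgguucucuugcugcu
miR-144-5p: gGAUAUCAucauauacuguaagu
miR-144-3p: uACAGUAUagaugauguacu
The 4 seeds differ from each other, and none of them occurs in any other of the 693 rat mature sequences of the RefSeq table.

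The values deposited by the authors are estimated read counts without normalization, and levels are given as RPM, the reads scaled to a library precursor total of 1000000, or to that mature total for arms. Precursor totals were 388275 to 1204552 reads in brain, 162080 to 3685761 in the pools and 7556 to 10862 in serum. Intervals are 95% Wilson intervals and the smallest level that can be shown was taken as 3 reads. Both cover counting error only. Checked by known miRNAs, brain, heart, skeletal muscle, skin, spleen, small intestine and testes each held the highest level of every listed marker of their own. Large intestine was second to small intestine for mir-194. In the library labelled pancreas the acinar miRNAs mir-216a and mir-217 were at 0 reads while the hepatocyte miRNA mir-122 stood at 14862 RPM, against 14726 RPM in liver. That library goes against its label, and tests and medians that rest on the pools are therefore also given without it.

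In the 15 tissues, spleen held by far the most of both precursors. In the spleen pool mir-451 had 1286 reads, or 6026 RPM (95% interval 5706 to 6363), and mir-144 had 1449 reads, or 6790 RPM (6450 to 7147). These levels were 446-fold and 372-fold the medians of the 15 tissues, which were 13.5 and 18.3 RPM. Without the pancreas library the medians were 12.9 and 17.3 RPM and the ratios 466 and 392. Because these are bulk samples, fewer red cells and less of the miRNA per cell cannot be told apart.

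The next 4 tissues were lung, heart, the library labelled pancreas and liver. mir-451 was at 152 RPM in lung (137 to 169), 130 RPM in heart (104 to 163), 119 RPM in the pancreas library (80.0 to 177) and 36.6 RPM in liver (20.9 to 64.0). mir-144 was at 198 RPM in heart (165 to 238), 191 RPM in lung (174 to 209), 174 RPM in the pancreas library (125 to 241) and 125 RPM in liver (92.2 to 170). Lung, heart and that library could not be ranked, since their intervals overlapped for both precursors. For mir-144 liver overlapped with heart and that library but lay below lung. For mir-451 liver was below lung, heart and that library. Spleen exceeded the next tissue by 39.6-fold for mir-451 and 34.3-fold for mir-144, both unchanged without the pancreas library. With TMM-scaled libraries these ratios fell to 14.8 and 11.5, and the pancreas library then followed spleen.

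The remaining 10 tissues, brain included, were all at or below 26.2 RPM. For mir-451 they ran from kidney at 21.3 RPM (12.4 to 36.4) to large intestine at 0.814 RPM, which was 3 reads in the deepest library. For mir-144 kidney was again the highest, at 26.2 RPM (16.1 to 42.5), and large intestine the lowest, at 1.63 RPM. Thymus, skeletal muscle, fat and stomach lay between 8.81 and 15.2 RPM for mir-451 and between 10.1 and 21.3 RPM for mir-144. Skin had 3 reads of mir-451 and 11 of mir-144, and testes and small intestine had at most 3 reads of either. Of the 14 pairs of neighbours in the order of each precursor, 12 overlapped in their intervals. Neighbouring ranks below liver were therefore not resolved at this depth, although kidney lay above brain and large intestine for both precursors.

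**Figure D1:**
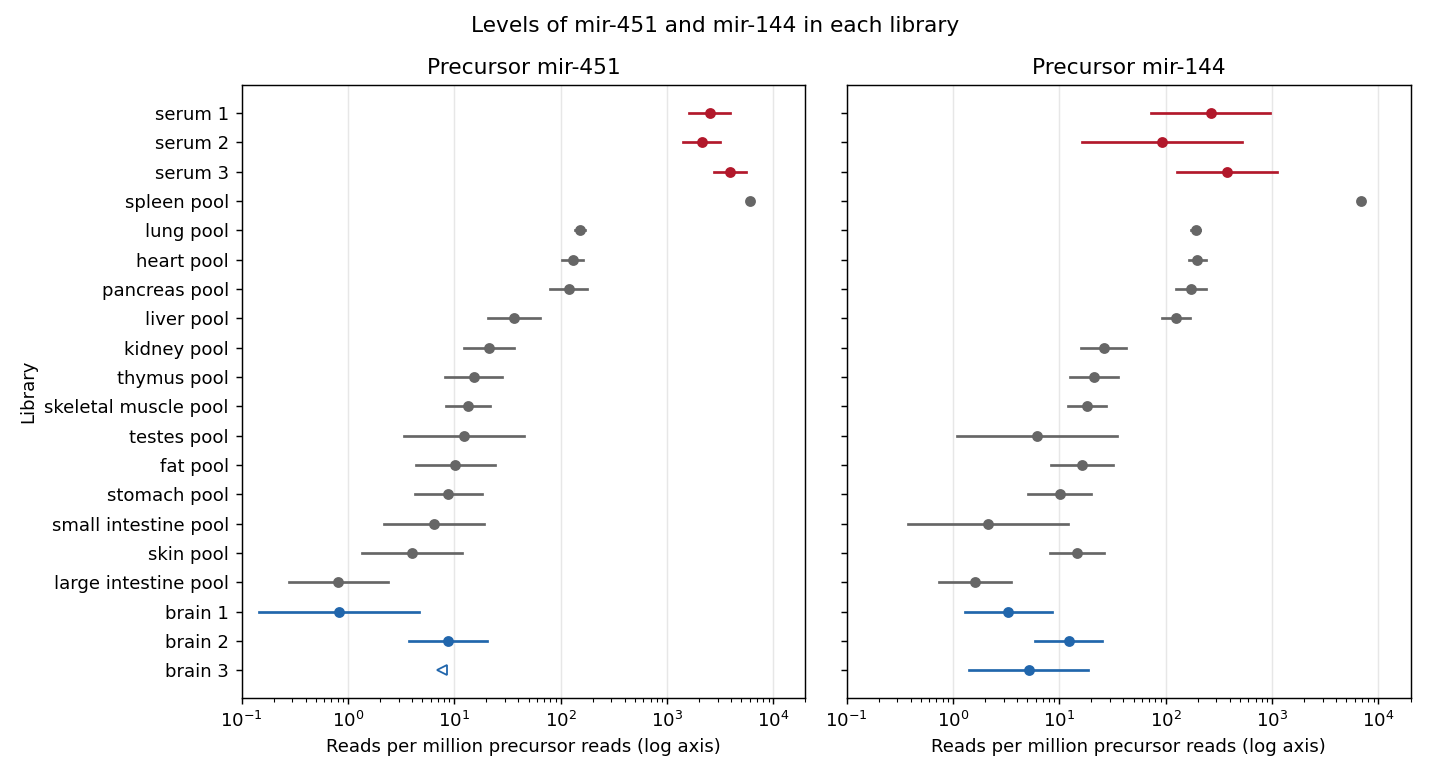
Level of each precursor (x axis, RPM of precursor reads, log scale) in each of the 20 libraries (y axis), for mir-451 on the left and mir-144 on the right. Points are single libraries, lines are 95% Wilson intervals, serum is red, pools are grey and brain is blue, and the open triangle marks the 3-read limit of brain hemisphere 3, which had 0 reads of mir-451. Serum stands close to spleen for mir-451, between 2117 and 3909 RPM against 6026 RPM, and far below it for mir-144, between 92.1 and 378 RPM against 6790 RPM.

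The brain hemispheres held only traces. mir-451 had 1, 5 and 0 reads in hemispheres 1 to 3, or 0.830, 8.76 and 0 RPM, a mean of 3.20 ± 4.84 RPM (SD, n = 3). mir-144 had 4, 7 and 2 reads, or 3.32, 12.3 and 5.15 RPM, a mean of 6.91 ± 4.73 RPM. Hemisphere 2 was the highest for both precursors, and 1 hemisphere differed from another by as much as the mean itself. In hemisphere 3 a level of up to 7.73 RPM is allowed by the 0 reads of mir-451.

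In serum, mir-451 was abundant, while mir-144 was far below it and rested on few reads. mir-451 had 19, 23 and 31 reads in serum 1 to 3, or 2515, 2117 and 3909 RPM, a mean of 2847 ± 941 RPM (SD, n = 3). mir-144 had 2, 1 and 3 reads, or 265, 92.1 and 378 RPM, a mean of 245 RPM (SD 144.1, n = 3), and all of these counts are at or under the 3-read limit. Every serum library was above every tissue but spleen for mir-451. For mir-144 the serum mean was also above every tissue but spleen, yet the serum libraries overlapped with heart, lung, the pancreas library and liver.

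Only serum and brain have replicates. Their levels were set against each other over all precursors with edgeR's quasi-likelihood test with Benjamini-Hochberg adjustment. Of the members, mir-451 had enough reads to be tested and was higher in serum, with a log2 fold change of serum over brain of 9.97 (standard error 0.51, adjusted p = 9.65e-09 from edgeR). Of all 235 precursors tested, 18.7% were called higher and 44.7% lower in serum, and the median log2 fold change was −2.15. mir-451 passed the filter of 10 reads in 3 libraries through its serum reads alone, so it could be tested only because it was high there. The 3 serum libraries did not overlap with the 3 hemispheres. Without hemisphere 2, which held 5 of the 6 brain reads, the log2 fold change was 11.61, the largest among the fits that left out 1 library.

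mir-144 did not reach the filter in this comparison. With the filter lowered to 2 reads in 3 libraries, an alternative chosen after seeing the data, its log2 fold change of serum over brain was 4.75 (standard error 0.97, adjusted p = 0.000175 from edgeR). It rests on 6 serum reads, 228 RPM over the 3 libraries together (104 to 497), and 13 brain reads, 6.01 RPM together (3.51 to 10.3). The point values of the groups did not overlap for mir-144 either, but depth fixes this once a serum library holds any read. In serum 2 a single read was 92.1 RPM (16.3 to 521). Hemisphere 2 was at 12.3 RPM (5.94 to 25.3), and these intervals overlap.

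Against the 14 pools taken as 1 group, edgeR called neither precursor in serum, whereas DESeq2 called mir-451 higher. The spread between tissues enters this test, and serum is 1 fluid entered as 3 libraries, which can make p-values too small. In this fit the log2 fold change of serum over the pools was 2.36 for mir-451 (standard error 1.46, adjusted p = 0.247 from edgeR) and −1.50 for mir-144 (standard error 1.95, adjusted p = 0.531), with a median of −2.18 over 236 precursors. Of these precursors 5.93% were called higher and 16.9% lower in serum, 14 and 40 in number, and with library totals in place of TMM the split was 28 and 13. Leaving out 1 serum library gave 8 and 22, 13 and 23, and 8 and 23 for serum 1 to 3. With DESeq2 mir-451 was at 4.59 (standard error 1.07, adjusted p = 0.000156 from DESeq2) and mir-144 at 0.57 (adjusted p = 0.721), so the call for mir-451 and the sign for mir-144 depended on the tool. They also depended on the spleen pool. With that pool left out the log2 fold change of mir-451 from edgeR was 4.603 (standard error 0.93, adjusted p = 0.00235 from edgeR), whereas that of mir-144 turned to 0.39 (standard error 1.30, adjusted p = 0.833). Spleen was the only pool above the serum libraries for mir-451. Leaving it out raises the value and cuts the spread between pools, so this fit is no separate support. Without the pancreas library the values were 1.87 (adjusted p = 0.453 from edgeR) for mir-451 and −1.92 (adjusted p = 0.522) for mir-144.

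Brain against the pools gave negative values for both precursors, short of the threshold with edgeR and past it with DESeq2. Here the 3 hemispheres are 1 tissue entered as 3 libraries, with the same caution on p. In this fit the log2 fold change of brain over the pools was −7.49 for mir-451 (standard error 3.06, adjusted p = 0.0548 from edgeR) and −6.69 for mir-144 (standard error 2.78, adjusted p = 0.0576). With DESeq2 the values were −5.51 (standard error 1.23, adjusted p = 2.59e-05 from DESeq2) and −4.98 (standard error 1.14, adjusted p = 3.83e-05). Of the 295 precursors tested, 24.1% were called higher and 18.6% lower in brain, that is 71 and 55, against 123 and 24 with library totals and 68 and 119 with DESeq2. The number lower in brain also rested on having all 3 hemispheres, since it was 14, 16 and 15 without hemisphere 1, 2 and 3 in turn, with 46, 53 and 63 higher. With the spleen pool left out both members were called lower in brain, at −4.59 for mir-451 (adjusted p = 0.0311 from edgeR) and −4.19 for mir-144 (adjusted p = 0.0405). Both differences were smaller than with spleen. The standard errors fell to 1.59 and 1.54, so the calls rest on the smaller spread between pools once the highest is dropped. Without the pancreas library they were at −7.95 (adjusted p = 0.0611 from edgeR) and −7.11 (adjusted p = 0.0665).

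The balance between the pair was the measure in which serum stood apart from the tissues. A ratio taken within a library does not depend on how libraries are scaled. Of the reads of both precursors, mir-451 made up 90.5%, 95.8% and 91.2% in serum 1 to 3, and 92.4% (84.4 to 96.5) of the 79 reads together. In spleen its share was 47.0% (45.2 to 48.9) of 2735 reads, in lung 44.4% (41.0 to 47.8) of 820 reads, in heart 39.7% (33.0 to 46.8) of 189 reads and in the pancreas library 40.7% (29.1 to 53.4) of 59 reads. In these 4 libraries mir-144 had more reads than mir-451, although the interval of the pancreas library includes equal shares. Liver had the lowest share among pools with at least 50 reads of the pair, 22.6% (13.5 to 35.5) of 53 reads, and its interval lay wholly below those of spleen and lung. In the hemispheres the share was 20.0%, 41.7% and 0% of 5, 12 and 2 reads.

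**Figure D2:**
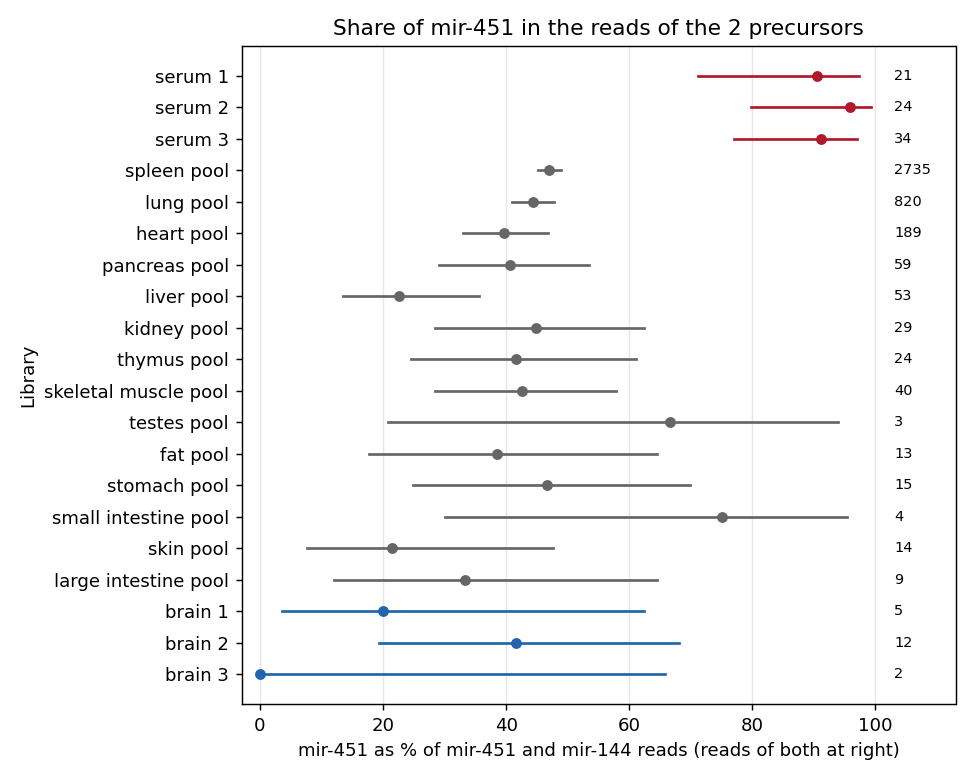
mir-451 as a percent of the reads of mir-451 and mir-144 together (x axis) in each library (y axis), with 95% Wilson intervals as lines and the number of reads of both at the right. The 3 serum libraries lie above 90%, while every pool with at least 50 reads of both lies between 22.6% and 47.0%.

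On the log2 scale the ratio of mir-451 to mir-144 was 3.25, 4.52 and 3.37 in serum and ran from −1.87 in skin to 1.58 in small intestine among the pools. The serum mean was 3.71 (SD 0.70, n = 3) and the pool mean −0.41 (SD 0.90, n = 14), a difference of 4.13, and every serum library was above every pool. In a two-sided exact permutation test of 3 serum libraries against 14 pools p was 0.00294, the smallest these numbers allow, a test chosen after the values were seen, with serum again 1 fluid in 3 libraries. It was 0.00357 without the pancreas library and 0.0357 over the 5 pools with at least 50 reads of the pair, again the smallest values possible. The highest pools, small intestine and testes, had 4 and 3 reads of the pair. Against the hemispheres, whose mean was −1.60 (SD 0.98, n = 3), the difference was 5.32, and the exact permutation p of 0.1 is the smallest that 3 against 3 can give. At the ratio seen in spleen, the 73 serum reads of mir-451 would come with 82.3 reads of mir-144, and 6 were observed.

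The ratio of mir-451 to mir-23a, a miRNA that red cells hold little of, is a common gauge of red cell contents in serum. Its log2 value was −0.34, −0.76 and −0.26 in serum 1 to 3, and −8.04, −4.93 and −7.95 in hemispheres 1 to 3, with 0.5 reads added to both where mir-451 was at 0. The serum libraries lay close together, with a mean of −0.45 (SD 0.27, n = 3), and none overlapped with a hemisphere. The difference from brain was 6.52, and the exact permutation p of 0.1 was again the smallest possible. Spleen had the highest value of the pools at 3.71, and the pancreas library was next at 0.19. The other 12 pools, from large intestine at −8.39 to liver at −2.03, were all below the serum libraries.

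The arms separated the pair further. In spleen 92.1% (90.6 to 93.4) of the reads on the mir-144 precursor were also counted under its arms, but for mir-451 only 11.5% (9.88 to 13.4), that is 148 of 1286 reads. Lung gave 93.4% and 20.1%, and heart 96.5% and 16.0%. Among the 91 precursors with at least 50 spleen reads and arms listed under their own name the median was 65.5%, with 22 precursors below mir-451 and 70 below mir-144. Most reads on the mir-451 hairpin were therefore not assigned to either annotated arm, and read lengths were not analysed here. How reads longer or shorter than an annotated arm were counted is not given in the sources used here, and it bears on every arm value of mir-451.

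In serum a larger share of mir-451 reads was counted under its arms than in most pools with at least 10 precursor reads. It was 42.1%, 26.1% and 38.7% in serum 1 to 3, 26 of 73 reads in all, and all 26 were of the -5p arm. Pools with fewer reads were left out, with stomach at 42.9% (3 of 7 reads) and fat at 40.0% (2 of 5). Large intestine, skin, small intestine and testes, also left out, were at 0%. Over the 8 pools with at least 10 precursor reads the share ran from 0% in kidney to 33.3% in liver, with a median of 13.9%. The means were 35.6% (SD 8.44, n = 3) in serum and 14.9% in those pools, a difference of 20.7 percentage points (two-sided exact permutation p = 0.0242, chosen after the values were seen), although liver, with 12 reads, overlapped with serum 2. Without the pancreas library the difference was 20.97 points (exact permutation p = 0.0333). This makes the order of serum and spleen depend on the annotation. As precursors, the serum mean of mir-451 was 0.472 of the spleen level. As mature arms it was 1.74 times that level, with miR-451-5p at 1637, 854 and 2211 RPM in serum 1 to 3 against 868 RPM in spleen.

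miR-451-5p was the main arm wherever mir-451 arms were read in number, with 143 reads against 5 of miR-451-3p in spleen and 62 against 11 in lung. In the hemispheres 2 reads of miR-451-5p and 0 of miR-451-3p were counted, and in serum miR-451-3p had 0 reads in each library, which over the 17336 mature reads together allows up to 173 RPM. None of the 4 arms reached 10 reads in 3 libraries of the comparison of serum with brain, so no arm was tested there with that filter. In the edgeR fit without a filter, over 473 mature miRNAs, miR-451-5p was higher in serum at 8.64 (standard error 0.69, adjusted p = 1.0e-32 from edgeR), from 26 serum and 2 brain reads. With 3 libraries a side and so few reads, the size of this p says little about the spread between rats. The serum libraries ran from 854 to 2211 RPM. miR-144-3p was also called higher (adjusted p = 0.0095 from edgeR), from 2 serum reads against 0 in brain, both at or under the 3-read limit, so no fold is given. miR-144-5p was at 2.12 (standard error 2.05, adjusted p = 0.526 from edgeR), from 1 serum read and 9 brain reads. Both arms of mir-144 were present in tissues. miR-144-5p led in spleen with 951 reads against 384 of miR-144-3p, so that the -3p arm made up 28.8% (26.4 to 31.3) of the arm reads.

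That balance varied between pools. The -3p arm of mir-144 was 17.8% (14.5 to 21.8) in lung, 30.0% (22.2 to 39.1) in heart, 55.9% (39.5 to 71.1) in the pancreas library and 69.2% (53.6 to 81.4) in liver, where it had 27 reads against 12 of the -5p arm. The intervals of liver and of the pancreas library, which also share the mir-122 level given above, lay above those of spleen and lung. In brain 9 reads of miR-144-5p and 0 of miR-144-3p were counted. Since each pool is 1 library, these differences have no replicate check.

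**Figure D3:**
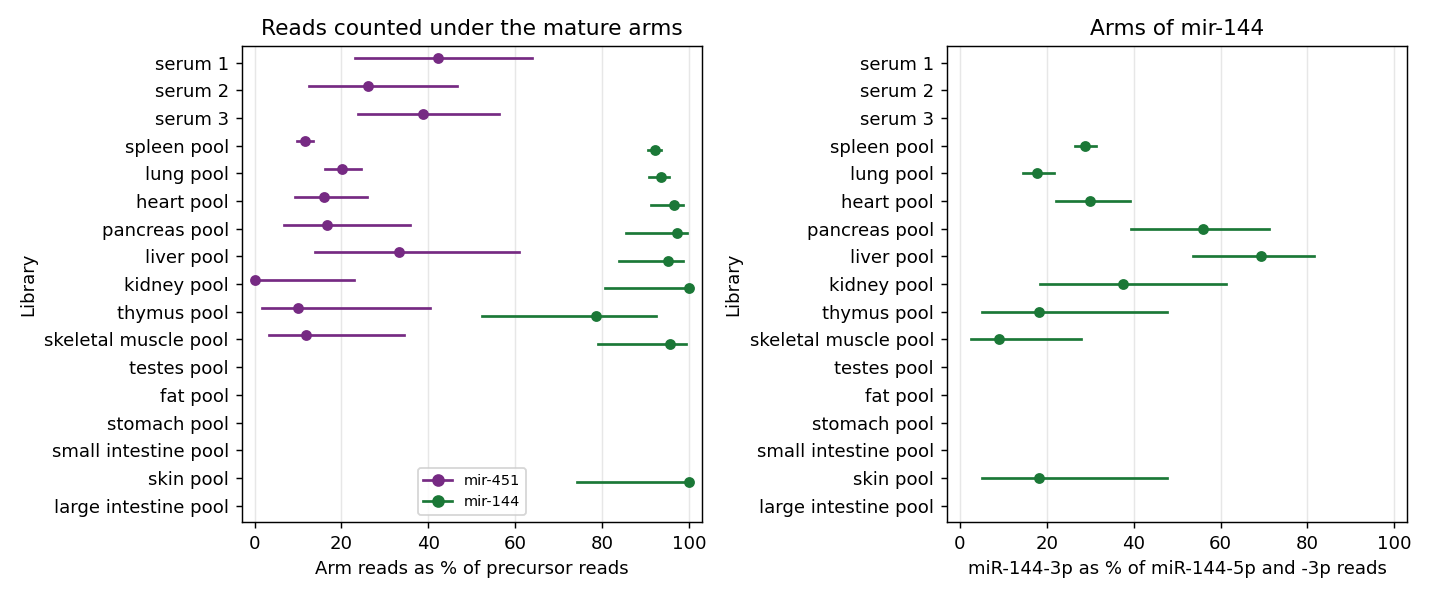
Left, reads counted under the mature arms as a percent of reads on the precursor (x axis), for mir-451 in purple and mir-144 in green, in libraries with at least 10 precursor reads (y axis). Right, miR-144-3p as a percent of the reads of both mir-144 arms, in libraries with at least 10 such reads. Lines are 95% Wilson intervals. mir-451 lies at or below 42.1% throughout while mir-144 lies at 78.6% or above, and the -3p share of mir-144 is highest in liver and in the pancreas library.

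Across tissues the pair moved together. Over the 15 tissues, with 1 RPM added before the log2, the profiles of mir-451 and mir-144 correlated with r of 0.965 (rho 0.936), with r of 0.928 without spleen and 0.964 without the pancreas library. This is a description over tissues whose levels share a library total. Among the 295 precursors with at least 10 reads in 3 of the 20 libraries, mir-144 was the one most like mir-451 and the reverse. The precursors next most like mir-451 were mir-26b (r 0.737), the myeloid mir-223 (0.722), mir-184 (0.719) and mir-146a (0.692), an inhibitor of inflammatory signalling. For mir-144 they were mir-26b (0.787), mir-3596d (0.762), let-7f-1 (0.762) and mir-146a (0.717). Without spleen mir-223 was at 0.438 with mir-451, while mir-26b was at 0.851 with mir-451 and 0.885 with mir-144, closer to the 0.928 of the pair. Without the pancreas library mir-223 (0.729) and mir-184 (0.7245) stood before mir-26b (0.7237) for mir-451, and mir-26b (0.778) was still first after the pair for mir-144.

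Other miRNAs known to be abundant in red cells are mir-16, mir-25, mir-92a-1, mir-92a-2, mir-185, mir-210 and mir-363, which nucleated cells also express. In serum against brain 5 of these 7 rose, against the 18.7% of all precursors called higher, and 0 fell, with a median log2 fold change of 2.96 beside −2.15 over all precursors. The largest were mir-92a-2 at 6.59 (standard error 0.27, adjusted p = 5.03e-09 from edgeR) and mir-92a-1 at 5.63 (standard error 0.26, adjusted p = 5.94e-09), which share a mature sequence. mir-185, with 1 serum read, was at 0.51 (adjusted p = 0.765 from edgeR) and mir-210 at 1.29 (adjusted p = 0.233). In serum against the pools edgeR called 0 of the 6 tested in either direction, beside 5.93% of all precursors higher and 16.9% lower. Without the pancreas library 1 was called higher, mir-92a-1 at 1.87 (adjusted p = 0.0494 from edgeR), beside 21 of all 236 precursors. In brain against the pools 4 of 7 were lower, beside 18.6% of all precursors. Of the 7, mir-185 was higher at 1.80 (adjusted p = 0.0406 from edgeR), beside 24.1% of all precursors called higher. Both counts held without the pancreas library.

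None of these 7 singled out spleen as mir-451 and mir-144 did. Their spleen levels were 1.00-fold to 20.2-fold the median of the 15 tissues, and spleen was the highest tissue for none of them. Thymus was highest for mir-16, at 40187 RPM against 30031 RPM in spleen, and for mir-25, mir-92a-1, mir-92a-2 and mir-363, while thymus held mir-451 at 15.2 RPM.

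Leukocyte miRNAs moved with the members in part, and their share in these results was not tested. Spleen was the highest tissue for mir-150, mir-223, mir-155 and mir-146a, and second to thymus for mir-142, at 59167 against 65299 RPM. Their spleen levels were 3.84-fold to 63.2-fold their medians. In serum against brain all 3 that could be tested were higher, beside 18.7% of all precursors. They were mir-142 at 5.85 (adjusted p = 4.47e-08 from edgeR), mir-146a at 4.70 (adjusted p = 8.17e-08) and mir-150 at 4.001 (adjusted p = 6.36e-08). Against the pools 1 of 5 was higher in serum, mir-146a at 1.18 (adjusted p = 0.0492 from edgeR), beside 5.93% of all precursors. In brain 3 of 5 were lower, mir-142, mir-223 and mir-146a, beside 18.6% of all precursors. The counts were the same without the pancreas library. mir-126a, an endothelial miRNA that follows blood vessels, had another pattern, with 42495 RPM in heart, 32972 RPM in lung and 12206 RPM in spleen. It was lower in serum than in brain, at −1.27 (standard error 0.27, adjusted p = 0.0013 from edgeR), while mir-23a was higher there at 3.96 (standard error 0.29, adjusted p = 1.89e-07). Against the pools mir-126a was lower in serum at −4.15 (adjusted p = 0.0119 from edgeR) and in brain at −2.30 (adjusted p = 0.0442), and mir-23a was higher in serum at 1.87 (adjusted p = 0.0176). The hepatocyte mir-122 had 1786 reads in serum, a mean of 57887 RPM (SD 73172, n = 3), and 0 in brain and in spleen, the tissue highest in the members.

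**Figure D4:**
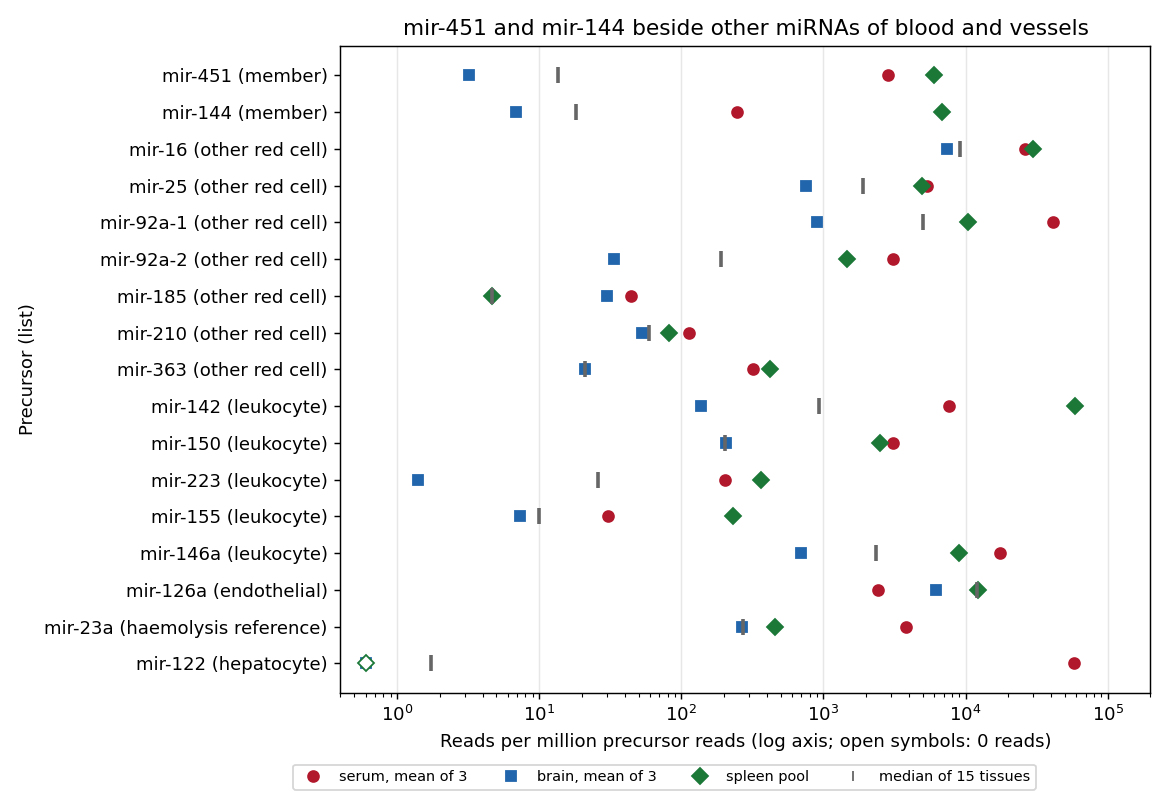
Level (x axis, RPM of precursor reads, log scale) of the members and of the other miRNAs named for red cells, leukocytes, endothelium, haemolysis reference and hepatocytes (y axis). Red circles are the mean of 3 serum libraries, blue squares the mean of 3 hemispheres, green diamonds the spleen pool and grey bars the median of 15 tissues, with open symbols where all reads were 0. The distance from the tissue median to spleen is 446-fold for mir-451 and 372-fold for mir-144, and at most 63.2-fold for the others.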

How the data were processed

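Libraries were made with the TruSeq small RNA kit and sequenced on a MiSeq. The authors trimmed reads of base calls under phred 20, mapped to Rn5 by Bowtie and counted, using Partek and Strand NGS, against miRBase and RefSeq. Versions are not given in the sources used here. The values they deposited are estimated counts per miRNA, not normalized, under RefSeq, miRBase 21 precursor and miRBase 21 mature annotations, each of which counts the same reads.

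Levels are RPM of the annotation's own total. For tests, estimated counts were rounded and edgeR 4.0.16 (R 4.3.3) was run with TMM on features reaching 10 counts in 3 or more libraries. P-values were adjusted by Benjamini-Hochberg, and 0.05 was the threshold. DESeq2 1.42.0 was an alternative. Levels, intervals and permutation tests were computed in Python 3.11.15 (SciPy 1.17.1). Precision in serum is limited by totals of 7556 to 10862 precursor reads.

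The labels have serum run singly, which was followed here, although the study's methods name only brain as unpooled. Serum and brain libraries with the same number were taken as the same rat, since the study describes 3 rats for both and the deposited data number their animals alike. Their deviations from the group means correlated over 75 precursors at r of 0.103, −0.107 and −0.0799. Alternatives covered scaling, filters, annotation, DESeq2, the replicate block and libraries left out.

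Members and lists were chosen with earlier results of these data known. Named miRNAs are the members, the fixed lists for red cells, leukocytes, endothelium, haemolysis and hepatocytes, the tissue markers, and the precursors most like each member. Sequences are from RefSeq (GRCr8), matched by name for both hairpins and all 4 arms.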

Additional observations from a re-analysis of the deposited data

How the results depend on the processing

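Of 141 alternative values, 118 were kept, 6 passed the threshold where the reported value had not, 14 moved and 3 reversed. Kept meant the same direction and side of the threshold for a tested value. For a number of calls it meant that the total stayed within a set fold, and for other values within their error. A changed split between higher and lower calls thus still counted as kept. In serum against the pools the split went from 14 higher and 40 lower to 28 and 13 with library totals. In brain against the pools it went from 71 and 55 to 68 and 119 with DESeq2. Permutation tests of serum against brain could not change side, since their exact p cannot go below 0.1. In serum against brain, mir-451 was past the threshold in every fit that tested it. Its value was 8.98 to 11.61 with 1 serum or brain library left out and 9.84 with the replicate block, which changed no call of a member. The fits with a read filter admitted mir-451 only because of its serum reads, so they are no independent check. With 10 counts required in every library neither member could be tested. Then 46 of 51 precursors were called in serum against brain and 30 of 49 in serum against the pools. In brain against the pools it was 32 of 100. These stood in place of 149 of 235, 54 of 236 and 126 of 295. The share called thus rose in both comparisons with serum and fell in brain against the pools. Leaving out 1 serum or brain library gave 136 to 146, 30 to 36 and 60 to 78 calls. Under the replicate block 141 precursors and 125 arms were called, in place of 149 and 142. With DESeq2, serum against the pools gave 4.59 for mir-451 (adjusted p = 0.000156) and 0.57 for mir-144 (adjusted p = 0.721), where edgeR without spleen gave 4.603 and 0.39. Brain against the pools gave −5.51 (adjusted p = 2.59e-05 from DESeq2) and −4.98 (adjusted p = 3.83e-05), and without spleen −4.59 and −4.19. The fits without spleen leave out the pool with the most of both members, so they are no separate support. The cause of the difference between tools was not tested. Without the spleen pool 62 and 121 precursors were called against the pools in serum and brain, and without the pancreas library 58 and 123. With 1 serum or brain library left out, mir-451 was at 2.02 to 2.43 and mir-144 at −1.83 to −1.52 in serum against the pools, and at −9.20 to −6.77 and −7.09 to −6.19 in brain against the pools.

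Spleen exceeded the next tissue by 14.8-fold (TMM), 27.5-fold (DESeq2 size factors) and 24.5-fold (mature arms) for mir-451, and by 11.5-fold and 21.3-fold for mir-144 with TMM and DESeq2 size factors. Spleen was the highest of the 15 tissues under each of these. The serum mean of mir-451 over spleen was 0.256 with DESeq2 size factors and 1.74 as mature arms. With 1 serum or brain library left out the log2 ratio of mir-451 differed between serum and brain by 5.99 to 7.55 relative to mir-23a and by 4.91 to 5.87 relative to mir-144, and between serum and the pools by 3.72 to 4.36. With mir-16 as the reference the first was 8.54.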
